A study of Rattus norvegicus with 6 samples.

Results

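The LIM domain muscle-type cofactors described here are 8 genes whose products carry LIM domains and are best known from muscle: Lmcd1, Fhl1, Fhl2, Fhl3, Csrp1, Csrp2, Pdlim5 and Pdlim7. They were found by gene symbol among the 18420 genes of the deposited table, and all 8 passed the filter on low counts along with 13250 genes in all. The genes were chosen from values of these same libraries, the contrast between the 2 groups included, so their differences between groups are given as a description, with no p of their own and with counts of calls that carry no weight. The RNA came from primary chondrocytes of wild-type (WT) male Sprague-Dawley rats, used at the third passage. In the TNF-α group (n = 3) the cells received 10 ng/mL TNF-α, the inflammatory cytokine used to model osteoarthritis in culture, for 6 h. In the TNF-α+NFL group (n = 3) they received the same TNF-α and then NFL for 24 h. The harvest is taken to be at 6 h and at 30 h from these treatment lengths, since the study's methods name no harvest time. NFL, Nanofat lysate, is the freeze–thaw supernatant of stromal vascular cells from rat abdominal fat. All 6 libraries thus shared TNF-α, and the effect of NFL and that of a later harvest cannot be told apart. The deposited libraries include none of the study's untreated NC group, so no comparison with untreated cells could be made. The study calls its replicates biological and independent, but the sources do not say whether they came from separate animals or cultures, and p-values measure the spread between these libraries only. Every direction below follows the deposited group labels. The study's own listing of log2 values runs the opposite way, across nearly all genes that it shares with the table and for those of the 8 that it holds. Its qPCR of cartilage genes such as Col2a1 runs the way of the deposited labels. Under these labels Col2a1, Acan and Sox9 had higher means in the TNF-α+NFL libraries but were not called, and the groups overlapped for Acan and Sox9. Of the 11 chondrocyte markers tested, 8 were higher and 3 lower in the mean. Which assignment holds was not settled here, and a reversed one would turn around every difference and list count given here.

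A LIM domain is a pair of linked zinc fingers that binds other proteins rather than DNA. Proteins built on it sit at actin filaments, focal adhesions and muscle Z-discs, and several also move to the nucleus, where they act as cofactors of transcription factors such as serum response factor (SRF), GATA factors and β-catenin. SRF binds a short sequence called the CArG box and drives many actin cytoskeleton genes when its partners, the myocardin-related factors, are released from monomeric actin. In connective tissue cells these genes belong to the contractile, stress-fibre side of the cell, which chondrocytes take on when they spread on plastic.

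The sequences before the annotated starts of the 8 genes were searched for motifs of the transcription factors these cofactors work with. RefSeq windows of the assembly GRCr8 gave 10 starts for the 8 genes, 2 each for Fhl1 and Fhl2, and the 250 bases before each start were read. A CArG box was present in 3 of the 10 windows, and in 501 of all 33469 windows (1.5%), likewise searched over the 250 bases before the start. The windows shown are both starts of Fhl2 and the first of Fhl1, which hold the CArG boxes, and those of Lmcd1 and Pdlim5, which hold none and belong to genes with some of the larger differences described below. Each is written 5′ to 3′ on the strand of its gene, with the CArG box in capitals, and ends at the base before the start.
Fhl1, start 1, chrX:139638246-139638495 (+): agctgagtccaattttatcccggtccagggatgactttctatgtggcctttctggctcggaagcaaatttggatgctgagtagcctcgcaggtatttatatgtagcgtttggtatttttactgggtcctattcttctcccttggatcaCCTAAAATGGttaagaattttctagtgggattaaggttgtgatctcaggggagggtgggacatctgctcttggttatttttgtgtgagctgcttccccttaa
Fhl2, start 1, chr9:52954541-52954790 (-): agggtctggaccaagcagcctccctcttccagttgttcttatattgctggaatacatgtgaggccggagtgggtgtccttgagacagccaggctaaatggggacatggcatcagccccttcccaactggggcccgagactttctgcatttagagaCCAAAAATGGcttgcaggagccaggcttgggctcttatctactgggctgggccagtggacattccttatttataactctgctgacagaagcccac
Fhl2, start 2, chr9:52923327-52923576 (-): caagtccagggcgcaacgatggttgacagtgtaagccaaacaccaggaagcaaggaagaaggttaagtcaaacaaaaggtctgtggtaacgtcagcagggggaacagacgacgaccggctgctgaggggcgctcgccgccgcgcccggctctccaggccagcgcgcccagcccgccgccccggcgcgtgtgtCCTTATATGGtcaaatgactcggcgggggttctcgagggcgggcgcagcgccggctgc
Lmcd1, chr4:146948743-146948992 (+): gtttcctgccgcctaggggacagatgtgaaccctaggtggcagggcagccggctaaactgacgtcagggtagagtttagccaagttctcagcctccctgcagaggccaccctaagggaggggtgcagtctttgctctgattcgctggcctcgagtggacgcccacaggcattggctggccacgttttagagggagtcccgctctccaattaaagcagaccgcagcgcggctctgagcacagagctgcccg
Pdlim5, chr2:233793477-233793726 (-): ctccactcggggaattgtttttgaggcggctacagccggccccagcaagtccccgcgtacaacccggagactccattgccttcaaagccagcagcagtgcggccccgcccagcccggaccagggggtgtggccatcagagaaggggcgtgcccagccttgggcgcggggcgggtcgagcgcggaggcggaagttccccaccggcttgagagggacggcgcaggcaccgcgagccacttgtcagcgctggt

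The CArG box lay 102 to 93 bases before the first start of Fhl1, and 95 to 86 and 58 to 49 bases before the starts of Fhl2. The 3 matches differ from each other only in their central A and T bases. Fhl1 and Fhl2 thus shared the motif. Of this pair Fhl1 was at a higher level in the TNF-α+NFL libraries and Fhl2 was level, as given below. Whether the presence or absence of a CArG box bears on the differences between the groups was not tested, for this pair or for the other genes. Of the other motifs, searched on both strands, GGAATG, bound by TEAD factors, was in 1 of the 10 windows, the first of Fhl2 at 36 to 31 bases before the start, and in 12.1% of all windows. CAGAC, bound by SMAD proteins, was in 6 of the 10 windows, of 5 genes (Lmcd1, Fhl1, Fhl2, Fhl3 and Pdlim7), and in 42.9% of all windows. TGANTCA, bound by AP-1, was in 0 of the 10 and in 6.34% of all. No motif overlapped another. The windows differed in base composition, from 44.4% G and C at the first start of Fhl1, with 4 CpG, to 77.6% at Fhl3, with 31 CpG, against a median of 51.2% over all windows. A match describes letters in a window and not a bound site.

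**Figure D1:**
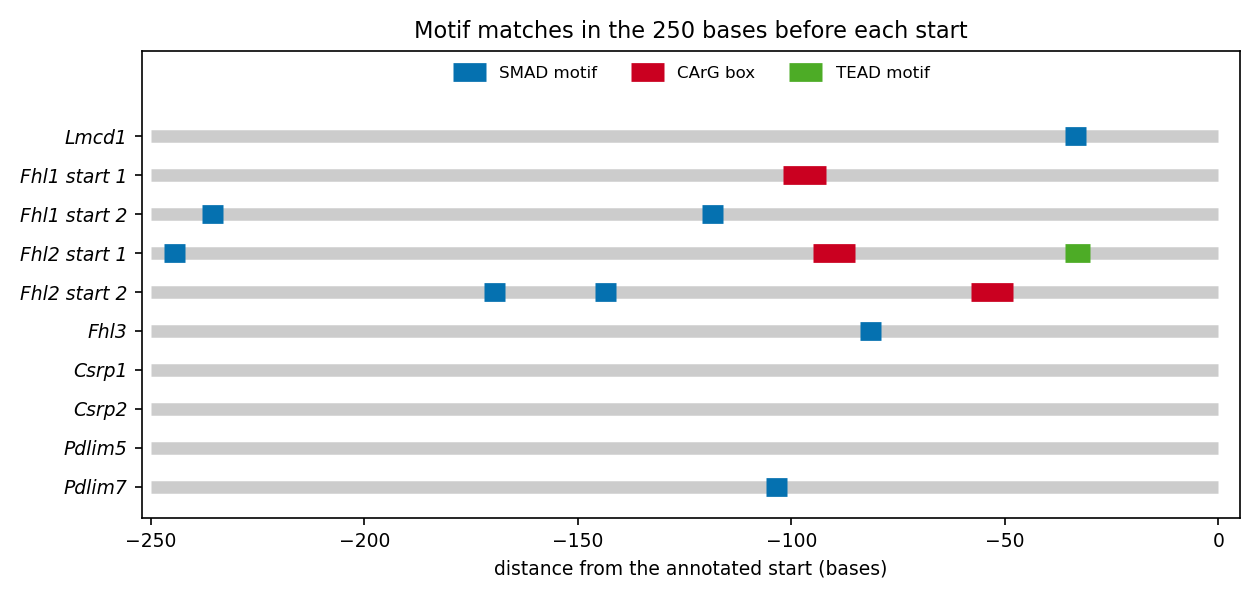
Positions of motif matches in the 250 bases before each annotated start, with 1 grey bar per start and the distance from the start in bases on the x axis. Red blocks are CArG boxes, found only at Fhl1 start 1 and both starts of Fhl2, blue blocks are SMAD motifs and the green block is the TEAD motif; the bars of Csrp1, Csrp2 and Pdlim5 hold no match.

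The libraries were of nearly equal depth, between 19344893 and 19725135 estimated counts. Along the first principal component of the tested genes, which held 26.1% of the variance, TNF-α replicates 1 and 3 lay at the ends, at -21.2 and 22.7, with all TNF-α+NFL libraries between them. Markers of chondrocytes were present at unequal levels. The summed CPM (counts scaled to library size after TMM normalization) of the 12 listed was 3499 to 4251 in the TNF-α and 3792 to 4074 in the TNF-α+NFL libraries, mostly from Prg4 and Col11a1, while Col2a1, the chain of cartilage collagen, was at 17.9 to 20.2 and 21.1 to 23.7 CPM. Under the deposited labels 8 of the 11 tested chondrocyte markers were higher and 3 lower in the mean. The log2 fold changes of Col2a1, Acan and Sox9 were 0.23, 0.09 and 0.05, and those of Comp, Hapln1 and Prg4 were -0.08, -0.08 and -0.14. The groups overlapped for Acan and Sox9. None of these markers passed an adjusted p of 0.05 in edgeR, as 0.611% of all tested genes did. Most skeletal muscle markers were low. Of the 14 listed, 11 were in the table and 3 passed the filter, Myod1, Acta1 and Tnnt3. The sarcomeric genes Ckm, Myh1 and Ttn never exceeded 3, 2.57 and 5.99 estimated counts in a library, while Tnnt3, a troponin T, held 37 to 48. Myod1, the myogenic regulator, was at 13.6 to 15.8 CPM in the TNF-α and 11.8 to 12.5 CPM in the TNF-α+NFL libraries. Acta1, skeletal α-actin, lay the other way, at 2.43 to 2.94 and 2.81 to 3.46 CPM with overlapping groups, and the muscle sum, mostly Myod1, was 19.8 to 22 against 17.7 to 19.0 CPM.

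Levels of different genes were compared on the deposited FPKM scale, which divides by transcript length. The 8 genes spanned from 3.50 FPKM, the lowest library of Csrp2, to 230.5 FPKM, the highest of Csrp1. Csrp1, an adaptor that binds α-actinin and zyxin on actin bundles, averaged 212 ± 10.3 FPKM (SD, n = 3) over the TNF-α libraries and 227 ± 3.81 over the TNF-α+NFL libraries, and ranked 359 of the 13250 tested genes. Pdlim5 came next at 105 ± 4.75 and 119 ± 3.47 FPKM, and no library of either gene fell into the range of the other.

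Below them lay genes of middle level. In the TNF-α libraries Fhl1 (67.2 to 74.1 FPKM) and Pdlim7 (65.7 to 68.4 FPKM) overlapped, so their order was not set. In the TNF-α+NFL libraries Fhl1 (84.2 to 88.5 FPKM) lay above every library of Pdlim7 (71.8 to 77.3 FPKM). Fhl2 followed at 59.1 ± 2.52 and 57.8 ± 5.30 FPKM, and was below Pdlim7 in every library of both groups. Lmcd1 was at 33.4 ± 0.516 and 43.1 ± 2.36 FPKM and Fhl3 at 18.4 ± 0.381 and 18.0 ± 0.272 FPKM. Csrp2, at 4.01 ± 0.146 and 3.82 ± 0.311 FPKM, ranked 9076 and had the lowest level of the 8 in every library. Within families the levels were therefore unequal, with Csrp1 at 53.0 ± 0.748 times the FPKM of Csrp2 in the TNF-α group.

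**Figure D2:**
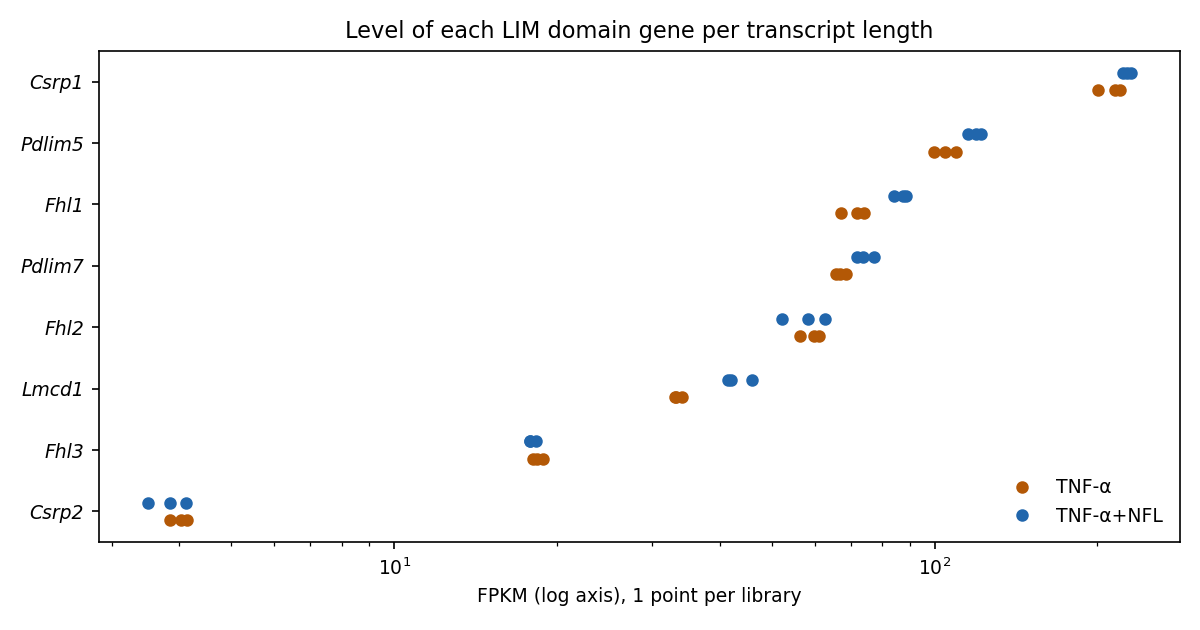
Deposited FPKM of the 8 genes on a log axis, with 1 point per library, TNF-α in orange and TNF-α+NFL in blue. Csrp1 is at the top between 200.8 and 230.5 FPKM and Csrp2 at the bottom between 3.50 and 4.14 FPKM; the 2 colours are apart for Csrp1, Pdlim5, Fhl1, Pdlim7 and Lmcd1, and mixed or touching for Fhl2, Fhl3 and Csrp2.

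The difference between the groups was largest for Lmcd1 (Entrez gene 494021), a cofactor that binds GATA6 and holds back its activity in cardiac and smooth muscle. Its CPM was 55.4, 56.1 and 55.0 in TNF-α replicates 1, 2 and 3, and 69.5, 76.1 and 68.8 in TNF-α+NFL replicates 1, 2 and 3. The TNF-α libraries were tightly grouped and all 3 TNF-α+NFL libraries lay above them, with replicate 2 the highest. The group means were 55.5 ± 0.588 and 71.4 ± 4.01 CPM (SD, n = 3), a difference of 28.7% and a log2 fold change of 0.36 (SE 0.049). Leaving out 1 library at a time gave log2 fold changes from 0.32, without TNF-α+NFL replicate 2, to 0.39, without TNF-α+NFL replicate 3.

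The FHL family divided into 1 gene that was higher and 2 that were level. Fhl1 (Entrez gene 25177), which binds titin and scaffolds signalling at the sarcomere, had CPM values of 158, 169 and 167 in the TNF-α libraries and 201, 196 and 204 in the TNF-α+NFL libraries. The groups were apart by a gap of 26.4 CPM, with means of 165 ± 6.15 and 200.3 ± 4.21 CPM, a difference of 21.5% and a log2 fold change of 0.28 (SE 0.041). Fhl2 (Entrez gene 63839), a coactivator of β-catenin and of the androgen receptor and itself bound to SRF, read 70.1, 73.7 and 75.9 CPM in the TNF-α and 67.4, 75.9 and 73.1 CPM in the TNF-α+NFL libraries. The lowest and the highest of these 6 values were both TNF-α+NFL libraries, and the log2 fold change was -0.02 (SE 0.052). Fhl3 (Entrez gene 313582), an actin-binding member that acts on muscle differentiation, read 30.0, 28.9 and 30.5 CPM in the TNF-α and 28.8, 29.9 and 30.4 CPM in the TNF-α+NFL libraries. These values interleaved, and their means of 29.8 ± 0.785 and 29.7 ± 0.839 CPM were closer than either spread. The sign of the small differences of Fhl2 and Fhl3 changed with the library left out, over ranges of -0.06 to 0.03 and -0.02 to 0.02 on the log2 scale.

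The balance among these FHL genes differed accordingly. The ratio of Fhl1 to Fhl2 in FPKM was 1.2 ± 0.032 in the TNF-α and 1.51 ± 0.165 in the TNF-α+NFL libraries, and that of Fhl1 to Fhl3 was 3.86 ± 0.228 and 4.81 ± 0.089. The lowest ratio of Fhl1 to Fhl2 among the TNF-α+NFL libraries, 1.34, was above the highest among the TNF-α libraries, 1.24. These ratios rest on the same libraries and the same contrast as the choice of the genes.

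Of the CSRP pair, only Csrp1 was apart between the groups. Csrp1 (Entrez gene 29276) read 340.3, 360.0 and 368 CPM in the TNF-α and 379, 374 and 386 CPM in the TNF-α+NFL libraries. The groups did not overlap, but the gap between TNF-α replicate 3 and TNF-α+NFL replicate 2 was 5.32 CPM and TNF-α replicate 1 was the lowest of the 6. The means were 356 ± 14.4 and 379.6 ± 6.24 CPM, a log2 fold change of 0.09 (SE 0.040), which became 0.06 when TNF-α replicate 1 was left out and 0.12 when TNF-α replicate 3 was. Csrp2 (Entrez gene 29317), known from smooth muscle where it joins SRF and GATA factors, was measured from 56 to 67 estimated counts per library. It read 3.19, 3.29 and 3.39 CPM in the TNF-α and 3.37, 2.87 and 3.16 CPM in the TNF-α+NFL libraries, and the groups overlapped. Counting error alone gives a coefficient of variation of 12.6% at this depth, larger than the difference of -4.82% between its group means, so a difference of this size was not detectable for Csrp2.

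Both PDZ and LIM genes were higher in the TNF-α+NFL libraries. Pdlim5 (Entrez gene 64353, also called ENH), which ties protein kinase C to α-actinin at the Z-disc, read 386, 387 and 376 CPM in the TNF-α and 435, 454 and 449.8 CPM in the TNF-α+NFL libraries. The groups were well apart, by 47.9 CPM, with means of 383 ± 6.34 and 446 ± 9.82 CPM, a difference of 16.5% and a log2 fold change of 0.22 (SE 0.037). Its counts were fractional in all 6 libraries, and which reads the estimate divided was not traced. On log2(FPKM + 1) the log2 fold change of Pdlim5 was 0.18. Pdlim7 (Entrez gene 286908, also called Enigma or LMP-1), which binds tropomyosin and takes part in bone formation, read 108, 108 and 111 CPM in the TNF-α and 116, 126 and 120.2 CPM in the TNF-α+NFL libraries. The groups were apart by 5.24 CPM, and TNF-α+NFL replicate 2 was the highest here as for Lmcd1. The means were 109 ± 1.90 and 121 ± 5.08 CPM, a difference of 11.1% and a log2 fold change of 0.15 (SE 0.043). Since both genes were higher, their FPKM ratio was 1.56 ± 0.103 in one group and 1.6 ± 0.021 in the other, with overlapping libraries.

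**Figure D3:**
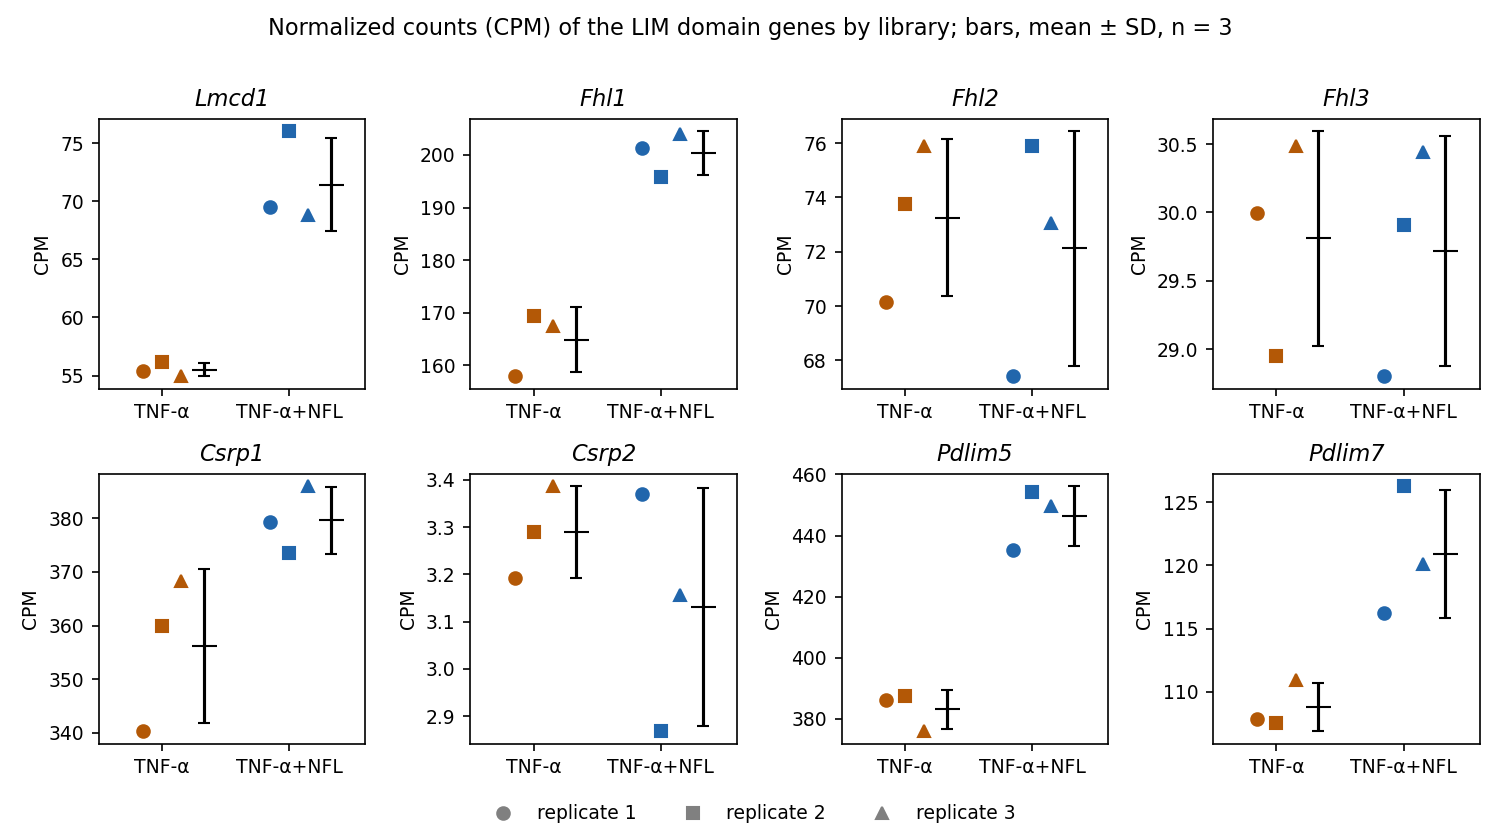
CPM of each of the 8 genes in each library, with circles, squares and triangles for replicates 1, 2 and 3 and bars for the mean ± SD (n = 3); each panel has its own y axis, which does not start at 0. In Lmcd1, Fhl1, Csrp1, Pdlim5 and Pdlim7 every TNF-α+NFL point is above every TNF-α point, and in Fhl2, Fhl3 and Csrp2 the groups overlap.

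Over the 8 genes, 5 were higher in every TNF-α+NFL library than in any TNF-α library, 0 were lower in that way and 3 overlapped. Among all tested genes, 8.66% were apart with the TNF-α+NFL group higher and 8.17% with it lower. An adjusted p under 0.05 in edgeR's quasi-likelihood test, adjusted over all 13250 tested genes, was reached by 3 of the 8 (Lmcd1, Fhl1 and Pdlim5), against 0.611% of all tested genes in either direction, 0.408% higher and 0.204% lower. An unadjusted p under 0.05 was reached by 5 of the 8 and by 11.1% of all. Nothing is read from these counts, since this contrast entered the choice of the genes. The median log2 fold change of the 8 was 0.12, and that of all tested genes was -0.0035. The count of 3 was also found with the DESeq2 Wald test (1.12% of all genes called) and with limma-voom (0.634%). It was 4 without TNF-α replicate 1, Pdlim7 being added, where 6.94% of all genes were called. It was 2 (Lmcd1 and Fhl1) without TNF-α replicate 2 (0.127%) or TNF-α replicate 3 (0.306%), 1 (Lmcd1) without TNF-α+NFL replicate 3 (0.194%), and 0 without TNF-α+NFL replicate 1 (0.0373%) or TNF-α+NFL replicate 2 (0.0821%). With limma on log2(FPKM + 1) it was 1 (Lmcd1), and 0.122% of all genes were called.

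**Figure D4:**
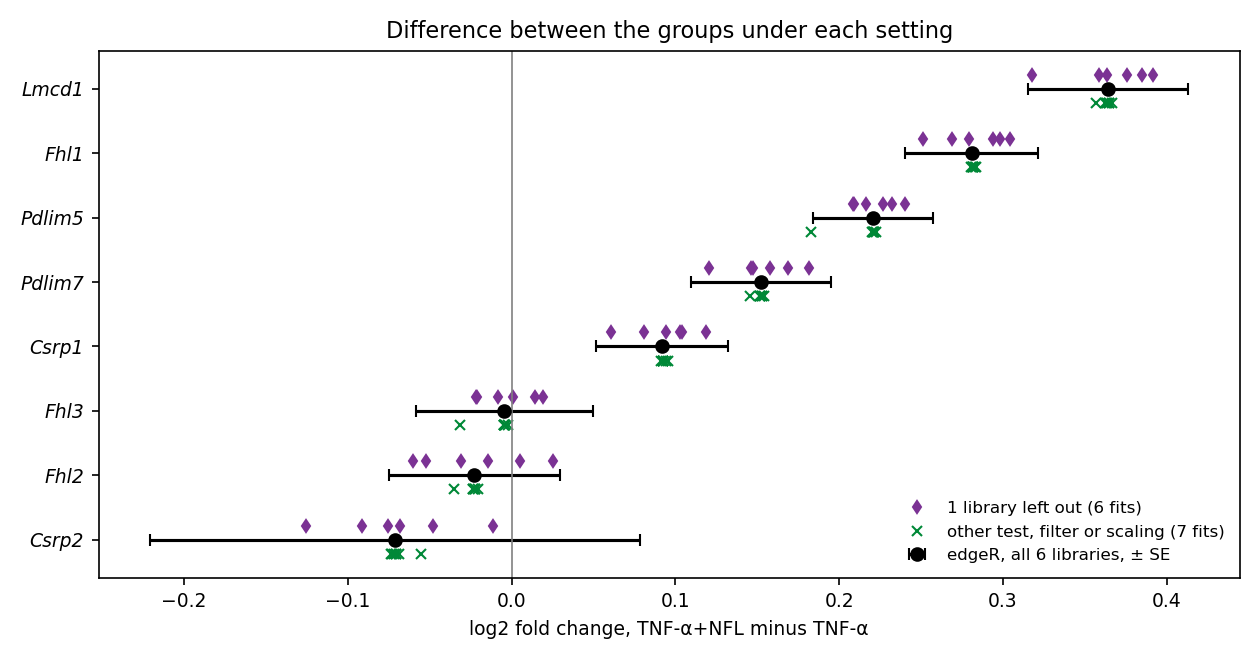
Log2 fold change (TNF-α+NFL minus TNF-α) of the 8 genes, with black points and bars for edgeR on all 6 libraries ± SE, purple diamonds for the 6 fits without 1 library and green crosses for the 7 fits with another test, filter or scaling. Lmcd1, Fhl1, Pdlim5, Pdlim7 and Csrp1 are above 0 in every fit, Csrp2 is below 0 in every fit, and Fhl2 and Fhl3 lie on both sides.

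In all, the 8 genes took a summed 570.0 ± 13.3 FPKM in the TNF-α and 629 ± 10.2 FPKM in the TNF-α+NFL libraries. Csrp1 held 37.2 ± 0.973% in the TNF-α and 36.1 ± 0.915% in the TNF-α+NFL libraries, and Pdlim5 held 18.4 ± 1.24% and 18.9 ± 0.268%. The libraries of the groups overlapped in these shares, as they did for Pdlim7. Fhl1 held 12.5 ± 0.362% and 13.8 ± 0.473%, and Lmcd1 5.87 ± 0.107% and 6.85 ± 0.332%, both apart and larger in the TNF-α+NFL libraries. Fhl2 held 10.4 ± 0.216% and 9.18 ± 0.706%, Fhl3 3.23 ± 0.097% and 2.86 ± 0.048%, and Csrp2 0.703 ± 0.012% and 0.608 ± 0.059%. These 3 shares were apart and smaller in the TNF-α+NFL libraries, although the FPKM of the 3 genes overlapped, since the sum itself was larger there.

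Within groups the 8 genes were measured with small spread. The standard deviation of log2 CPM within groups had a median of 0.087 over all tested genes, and the 8 genes fell between the percentiles 4.93 (Pdlim5) and 49.1 (Csrp2) of it. The libraries did not lie in the same order for each gene. TNF-α replicate 1 was the lowest of its group for 4 of the 8 and the highest for 0, TNF-α replicate 3 was the highest for 5, TNF-α+NFL replicate 1 was the lowest of its group for 4 and TNF-α+NFL replicate 2 the highest for 4. With the group means removed, Pearson's r across the 6 libraries was 0.91 for Csrp1 with Fhl1, 0.89 for Fhl2 with Pdlim7 and 0.73 for Lmcd1 with Pdlim7. It was -0.85 for Csrp2 with Pdlim5. These are descriptions over 6 libraries that share their depth and normalization between genes, and Csrp2 carries large counting error.

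Among the genes whose log2 CPM followed Lmcd1 most closely over the 6 libraries, of 9088 compared at a mean CPM of at least 10, were Klhl2 (Pearson's r = 0.994) and Tgfb2 (r = 0.994). Here the group means were not removed, so the difference between the groups enters these r values. Klhl2, an actin-binding adaptor of ubiquitin ligases, went from 43.5 ± 0.444 to 47.7 ± 1.06 CPM, a log2 fold change of 0.13, and Tgfb2, a TGF-β ligand, from 254 ± 2.38 to 298 ± 7.93 CPM (0.23). Both had a narrow TNF-α group and a high TNF-α+NFL replicate 2, as Lmcd1 had. They were picked for this likeness, so it is not tested.

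The wider LIM family was spread around the median of all genes. Of 61 further LIM domain genes, 59 were in the table and 47 were tested, of which 26 were higher and 21 lower in the mean, with a median log2 fold change of 0.017. None passed an adjusted p of 0.05 in edgeR's quasi-likelihood test (0 of 47, against 0.611% of all tested genes). An unadjusted p under 0.05 was reached by 8, all higher (11.1% of all genes in either direction), and 8 were apart upward and 3 downward (8.66% and 8.17% of all genes). The DESeq2 Wald test called 1 (Lmo4), limma-voom called 0, and edgeR called 3 when TNF-α replicate 1 was left out (6.94% of all genes) and 1 when TNF-α replicate 3 was (0.306%). The 3 largest differences at a mean CPM of at least 10 were those of Lmo4, Lims2 and Lpp. Lmo4, a LIM-only transcription cofactor, was at 139.9 ± 8.69 and 160.2 ± 5.66 CPM (log2 fold change 0.20, SE 0.049, adjusted p = 0.11 in edgeR). Lims2, the PINCH adaptor of integrin-linked kinase, was at 54.1 ± 1.88 and 60.9 ± 4.55 CPM (0.17, adjusted p = 0.25 in edgeR), and Lpp, a zyxin relative at focal adhesions, at 177 ± 14.2 and 197 ± 7.26 CPM with overlapping groups (0.16, adjusted p = 0.28 in edgeR).

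Genes of SRF and of the actomyosin filaments on which these cofactors sit rose in part. Of 39 such genes 38 were tested, 34 were higher and 4 lower in the mean, and 7 passed an adjusted p of 0.05 in edgeR's quasi-likelihood test, all upward (Cald1, Myl9, Acta2, Lmod1, Vcl, Tpm2 and Myh11), where 0.408% of all tested genes passed upward. Their median log2 fold change was 0.14. The list was drawn up with earlier results of these libraries known, so its count is not independent evidence of a direction. Cald1, caldesmon, which binds actin and tropomyosin, rose from 1702 ± 28.9 to 2129.9 ± 61.8 CPM (log2 fold change 0.32, SE 0.037, adjusted p = 0.0026 in edgeR). Myl9, the regulatory light chain of smooth muscle and non-muscle myosin, rose from 91.3 ± 3.51 to 114 ± 1.30 CPM (0.33, SE 0.042, adjusted p = 0.0056 in edgeR). Both changes were of the size seen for Lmcd1.

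Acta2, smooth muscle α-actin, rose from 2090.1 ± 109 to 2542 ± 64.2 CPM (0.28, adjusted p = 0.010 in edgeR) and Vcl, vinculin of focal adhesions, from 692 ± 19.2 to 798 ± 7.71 CPM (0.20, adjusted p = 0.024 in edgeR). Tpm2, a tropomyosin, rose from 449 ± 30.6 to 533 ± 12.5 CPM (0.25, adjusted p = 0.036 in edgeR). Lmod1, an actin nucleator of smooth muscle, rose from 32.7 ± 0.939 to 40.3 ± 1.21 CPM (0.30, adjusted p = 0.022 in edgeR), and Myh11, the smooth muscle myosin heavy chain, from 48.8 ± 4.16 to 59.8 ± 1.46 CPM (0.29, adjusted p = 0.041 in edgeR). The largest difference on the list at a mean CPM of at least 10 was not called: Myocd, myocardin, the SRF coactivator of smooth muscle, was at 31.2 ± 5.66 and 42.2 ± 1.58 CPM (0.44, SE 0.125, adjusted p = 0.27 in edgeR). Of the 6 fits without 1 library, Cald1 passed in 5, Myl9 in 4, Acta2, Lmod1 and Tpm2 in 2 and Vcl and Myh11 in 1. The count of 7, at 0.611% of all genes called, became 19 when TNF-α replicate 1 was left out, at 6.94% of all genes called. It was 2 without TNF-α replicate 2 (0.127% of all genes), 6 without TNF-α replicate 3 (0.306%) and 0, 1 and 2 without TNF-α+NFL replicates 1, 2 and 3 (0.0373%, 0.0821% and 0.194%).

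Among 26 genes for proteins that bind the 8 products or act with them, such as α-actinins, protein kinases C and D, calcineurin, GATA factors and integrins, 22 were tested, 16 were higher and 6 lower in the mean, and the median log2 fold change was 0.047. Only Itgb1 passed an adjusted p of 0.05 (0.611% of all tested genes did). Itgb1, the integrin β1 chain, rose from 2503 ± 81.0 to 2884 ± 40.2 CPM (0.20, SE 0.037, adjusted p = 0.028 in edgeR), and of the 6 fits without 1 library it passed in 1, that without TNF-α replicate 1. The others with the largest differences were Itga7, the integrin chain of muscle laminin receptors, at 17.3 ± 1.48 and 21.0 ± 1.2 CPM (0.27, adjusted p = 0.17 in edgeR), and Prkd1, protein kinase D, at 17.4 ± 0.296 and 20.0 ± 1.07 CPM (0.20, adjusted p = 0.26 in edgeR). The count of 1 became 5 without TNF-α replicate 1, where 6.94% of all genes were called, and 0 without each of the other libraries in turn.

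**Figure D5:**
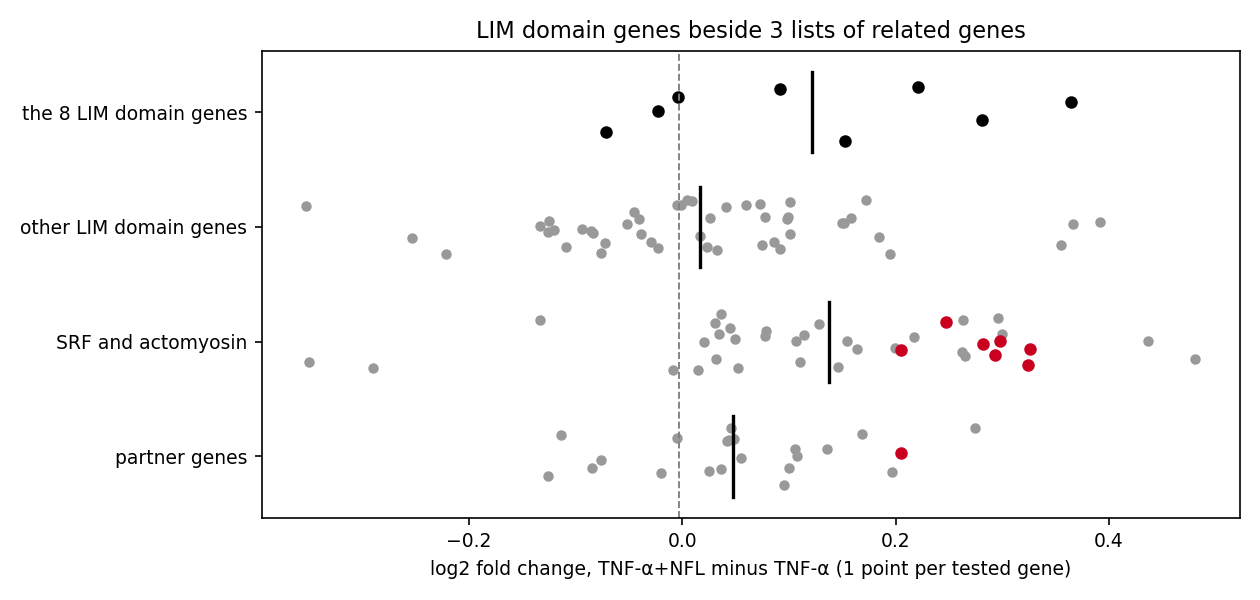
Log2 fold change (TNF-α+NFL minus TNF-α) of every tested gene of the 8 LIM domain genes and of the 3 lists, with a black line at each median, a dashed line at the median of all tested genes and red points for list genes past an adjusted p of 0.05 in edgeR; the vertical spread within a row only separates points. The medians are 0.12 for the 8 genes, 0.017 for the other LIM domain genes, 0.14 for SRF and actomyosin and 0.047 for the partners, and the 7 red points of SRF and actomyosin are all to the right.

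Markers of other cell types that a chondrocyte culture could hold were read beside these results. Of 11 smooth muscle and pericyte markers 10 were tested, 8 were higher and 2 lower in the mean, and 3 (Mcam, Lmod1 and Myh11) were higher at an adjusted p under 0.05 in edgeR (0.408% of all tested genes were), Lmod1 and Myh11 being also on the actomyosin list. The 2 lower in the mean were Cspg4, at 67.9 to 83.5 and 61.3 to 65.7 CPM with the groups apart, and Kcnj8, at 2.02 to 2.56 and 1.43 to 2.25 CPM with overlap, and neither passed the threshold. Pdgfrb, Mcam and Abcc9 of the same list were higher in the mean, at log2 fold changes of 0.06, 0.37 and 0.06. The summed CPM of the 11 markers overlapped, at 1326 to 1531 in the TNF-α and 1442 to 1506 in the TNF-α+NFL libraries, mostly from Pdgfrb. Rgs5, a pericyte marker, was at 0 to 2 estimated counts. The sum of the 7 adipocyte markers was 10.4 to 11.3 and 10.8 to 12.9 CPM, with Adipoq at 0 to 4 estimated counts. The sum of 5 endothelial markers was 0.354 to 0.657 and 0.305 to 0.819 CPM, with Kdr at 0 in all libraries. The sum of 5 macrophage markers was 77.8 to 82.4 and 69.7 to 71.7 CPM, mostly from Cd14 and Cd68. TNF-α replicate 1 stood apart in the other 3, with 40 estimated counts of Csf1r, 14.95 of Lyz2 and 7 of Ptprc, where the other libraries held 1 to 7, 0 and 0 to 2. Without that library the log2 fold changes were 0.36 for Lmcd1, 0.25 for Fhl1, 0.23 for Pdlim5, 0.15 for Pdlim7 and 0.06 for Csrp1. The part of the smooth muscle and pericyte markers in the differences of the 8 genes was not tested. In bulk RNA, fewer cells of a type and less RNA per cell cannot be told apart.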

How the data were processed

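RNA-seq of 6 libraries (3 per group, numbered by replicate in the labels, 50-base single-end reads on a BGIseq platform per the labels) was deposited as 1 table. The table holds estimated counts deposited without normalization, of which 27.3% to 28.0% in a library were fractional. The authors also deposited FPKM values, scaled to transcript length and mapped reads, and TPM values, which were not tested. The submitters' processing notes name HISAT2 2.0.4, Bowtie2 2.2.5, RSEM 1.2.12 and Rnor_6.0, and reads shared by near-identical transcripts are split by the estimate.

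After rounding and filterByExpr, the counts were tested in edgeR 4.0.16 under R 4.3.3 (TMM, robust quasi-likelihood fit, no covariates, two-sided), with Benjamini-Hochberg adjustment over 13250 genes and a threshold of 0.05. The biological coefficient of variation was 6.39%. On counts simulated for the comparison of TNF-α+NFL with TNF-α over 13250 genes, 91.4% of log2 changes of 1 and 34.5% of those of 0.3 were recovered. The F statistic of each gene gave the SE of its log2 fold change. DESeq2 1.42.0, limma-voom and limma 3.58.1 on log2(FPKM + 1), DESeq2 size factors, other filters, the replicate number as a block and leaving out each library were alternatives. Group names came from the deposited labels. Symbols of the lists were matched by Entrez gene to RefSeq (17068 of 18420 matched). Promoter coordinates are of GRCr8, not the build of the files.

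The 8 genes, the lists (written from general knowledge) and the tests were chosen with earlier results of these data known. Named are the 8 genes, list genes past the threshold, the 3 largest differences per list at a mean CPM of at least 10, and the 3 genes most like Lmcd1, of which 1 is not reported here.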

Additional observations from a re-analysis of the deposited data

How the results depend on the processing

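The log2 fold changes of Lmcd1, Fhl1, Pdlim5, Pdlim7 and Csrp1 kept their sign in each alternative run, and the median of the 8 genes ran from 0.10 to 0.14 when 1 library was left out. Their count of 3 past the threshold was 1 on log2(FPKM + 1) and 0 to 4 without 1 library. The count over all genes of 81 (54 higher, 27 lower) was 132 (84 and 48) with no filter on low counts, 148 (95 and 53) in the DESeq2 Wald test and 14 (8 and 6) on log2(FPKM + 1), and without 1 library it ran from 5 to 930 (5 to 460 higher, 0 to 470 lower). The count of other LIM domain genes of 0 was 1 in the DESeq2 Wald test and 0 to 3 without 1 library, and their median ran from 0.014 to 0.043. The count of SRF and actomyosin genes of 7 was 11 in the DESeq2 Wald test, 2 on log2(FPKM + 1) and 0 to 19 without 1 library, and their median ran from 0.13 to 0.16. The count of partner genes of 1 was 2 with no filter, 2 in the DESeq2 Wald test, 0 on log2(FPKM + 1) and 0 to 5 without 1 library, and their median ran from 0.041 to 0.086. The highest count over all genes was found without TNF-α replicate 1 and the lowest without TNF-α+NFL replicate 1, and the cause was not tested.

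Same-numbered libraries of the groups showed little shared deviation (correlations 0.030, -0.024 and 0.100). Such values cannot exclude a common animal or culture of small effect, so whether the replicate numbers pair the libraries is not known. In the fit with a replicate block for these numbers, 34 genes passed (25 higher, 9 lower, 32 of them among the 81), with 3 SRF and actomyosin genes, 0 partner genes and 2 of the 8 genes.

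With 3 libraries per group, 34.5% of log2 changes of 0.3 were recovered in simulated data, as an average over genes of all levels. This average does not give the recovery for a single gene such as Csrp1 (log2 fold change 0.09, SE 0.040). Csrp2 is limited by its depth.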
